A study of Mus musculus with 18 samples.

Results

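The genes described here are 8 of the 55536 gene identifiers in the count table, chosen by name for the families they belong to. The choice was made with earlier results of these data known. They are the orphan nuclear receptors Nr4a1, Nr4a2 and Nr4a3, the zinc finger transcription factors Egr1, Egr2 and Egr3, and the Egr-binding corepressors Nab1 and Nab2. All 8 passed the filter on low counts and were tested among 15204 genes. Nr4a2 passed it through the groups where it was higher, since it had 0 to 20 counts a library in peripheral OTII and peripheral Cbl-b-/- OTII cells.

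RNA was sequenced from CD4 T cells of C57BL/6 mice in 6 groups of 3 libraries, and all groups carried OTII, a transgenic T cell receptor for an ovalbumin peptide. Of these, 4 groups were sorted naive cells from spleen and lymph nodes (CD44 low, CD62L positive, without CD25, Va2 positive): peripheral OTII, peripheral W131AOTII, peripheral Cbl-b-/-W131AOTII and peripheral Cbl-b-/- OTII. The other 2, thymic OTII and thymic W131AOTII, were CD4 single-positive thymocytes that carried Va2 and lacked CD25. W131A replaces a residue of ZAP-70, the kinase that binds the engaged receptor, so that autoinhibition is weaker, and the series uses it as a genetic model of anergy. Cbl-b is a ubiquitin ligase that dampens signalling from the receptor, and the Cbl-b-/- groups lack it. The labels name 3 OTII mice, 12 with W131A alone, 3 without Cbl-b and 6 with both changes, but give no age. They state 4 mice per group for W131A alone and 2 per group for both changes, without tying a mouse to a library. Replicates may therefore share animals or be pools. If the 3 OTII mice named are all that were used, peripheral and thymic OTII libraries shared animals. The tests treat all libraries as independent, and p-values cover only the variation among these libraries. Mouse numbers differ with genotype, and their effects cannot be told apart.

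Ligation of the T cell receptor induces both families within a short time and without new protein synthesis. Egr genes are driven mainly through Ras, ERK and the serum response factor with its Elk partners, whereas Nr4a genes also depend on calcium, calcineurin, NFAT and MEF2. Nr4a1 is widely used as a reporter of receptor signal strength in T cells, Egr2 and Egr3 are linked to anergy and to the induction of Cblb, and Nab1 and Nab2 bind Egr proteins and damp their activity, with Nab2 itself an Egr-induced gene.

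The sequences upstream of the start sites are shown because several members moved together across the groups. RefSeq windows on GRCm38.p6 were matched by symbol for Nr4a1, Nr4a2, Nr4a3, Nab1 and Nab2, with 1 window each, and for Egr2, with 5 windows. Each window ran from 250 bases before to 50 bases after a start site, and only bases outside annotated exons are printed. Capitals mark matches on either strand to the core CRE motif TGACG, to the EGR site GCGNGGGCG and to the CArG box, the recognition sequence of the serum response factor. The Nr4a1 stretch is chr15:101266596-101266845 on the plus strand, inside an intron of a longer Nr4a1 transcript. The Nr4a2 stretch is chr2:57124004-57124253 on the minus strand and the Nr4a3 stretch is chr4:48045055-48045152 on the plus strand, both outside annotated exons. The Egr2 stretch, from the third of the 5 windows, is chr10:67537619-67537868 on the plus strand, inside an intron of longer Egr2 transcripts.
Nr4a1: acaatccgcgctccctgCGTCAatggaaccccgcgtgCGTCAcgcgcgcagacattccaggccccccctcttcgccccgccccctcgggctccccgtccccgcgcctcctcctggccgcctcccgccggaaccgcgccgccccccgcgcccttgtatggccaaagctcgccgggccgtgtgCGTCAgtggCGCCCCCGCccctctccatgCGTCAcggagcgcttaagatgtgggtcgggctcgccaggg
Nr4a2: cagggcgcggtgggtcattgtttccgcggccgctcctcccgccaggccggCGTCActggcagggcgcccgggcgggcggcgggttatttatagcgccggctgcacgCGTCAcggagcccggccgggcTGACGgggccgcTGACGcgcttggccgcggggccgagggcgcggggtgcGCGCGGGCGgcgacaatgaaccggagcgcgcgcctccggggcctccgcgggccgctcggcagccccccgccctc
Nr4a3: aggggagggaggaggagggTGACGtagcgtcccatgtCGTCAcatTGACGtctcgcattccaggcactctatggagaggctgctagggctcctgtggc
Egr2: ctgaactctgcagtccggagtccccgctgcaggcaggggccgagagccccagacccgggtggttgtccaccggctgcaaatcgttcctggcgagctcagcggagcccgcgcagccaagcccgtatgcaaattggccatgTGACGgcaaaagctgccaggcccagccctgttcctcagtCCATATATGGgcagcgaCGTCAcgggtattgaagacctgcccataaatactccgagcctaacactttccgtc

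Over the full windows, Nr4a1, Nr4a2 and Nr4a3 each held 4 core CRE motifs, of which the printed Nr4a3 stretch shows 3. Among 32851 RefSeq windows of the same length, 20.8% held at least 1 core motif and 76 (0.231%) held at least 4. The printed Egr2 window held 1 CArG box, 72 bases before the start site, and 2 core CRE motifs, and it was chosen for these matches. Windows 4 and 5, which overlap it, hold the same, the second has a CArG box and no core CRE motif, and the first holds no match, so the 1.63% of all single windows with a CArG box is no measure of this chosen one. An EGR site lay in the Nr4a1 and Nr4a2 windows, and 3 lay in the Nab1 window, where 0.195% of windows held at least 3. No Nab2 match to any of these motifs was found in its window. The full CRE TGACGTCA and the NR4A-binding NBRE AAAGGTCA were in none of the matched windows. No window was matched for Egr1 and Egr3, so these were not searched. The core motif is part of the full CRE, and these matches describe letters only. The shares are over all windows without matching for GC, so they do not measure rarity among GC-rich windows. The printed Nr4a1, Nr4a2 and Nr4a3 stretches held 74.4%, 80% and 61.2% GC.

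Total counts ran from 19708218 to 36218772 a library. In the check of the targeted gene, Cblb was 122 to 142 CPM (counts scaled to library size with TMM factors) in peripheral OTII, 146 to 177 in peripheral W131AOTII, 51.0 to 90.5 in peripheral Cbl-b-/- OTII and 82.8 to 111 in peripheral Cbl-b-/-W131AOTII. Cblb fell by 0.89 and 0.76 on the log2 scale in the Cbl-b-/- groups (edgeR adjusted p = 0.00605 and 0.0142). The counts span the whole gene, with the deleted exons not given in the sources used here, which makes this a partial check. Zap70 was called in none of these comparisons except the loss of Cbl-b in W131A cells (-0.68 ± 0.21, adjusted p = 0.0431). The 8 CD4 T cell markers summed to at least 14692 CPM in every library. Peripheral W131AOTII replicate 2 stood apart through B cell and myeloid transcripts (5030 and 193 CPM summed over 10 and 12 markers), and thymic OTII replicate 3 through the heat shock gene Hspa1b (113 CPM, against 0.0982 and 0.283 in its group). Leaving both out is reported where it changes a call.

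Levels between genes were compared per kilobase of exon. In peripheral OTII cells Egr1 stood at 28.2 ± 0.716 CPM per kb (SD, n = 3), Nab1 at 25.7 ± 1.96, Nab2 at 11.5 ± 0.933 and Nr4a1 at 11.4 ± 0.248. Egr2 followed at 6.48 ± 0.865 and Egr3 at 1.30 ± 0.0429, while Nr4a3 (0.228 ± 0.0506) and Nr4a2 (0.0449 ± 0.0369) were the lowest. Within its family, Nr4a1 made up 94.5% to 98.6% of the length-scaled reads in every library. Egr1 made up 61.8% to 80.3% of its own family, Egr2 15.9% to 33.9% and Egr3 1.57% to 6.59%. Egr1 and Nr4a1 therefore carried most of the reads of their families in all 6 groups, while the balance of the Nab pair shifted between the places. Nab1 was 65.3% to 79.8% of Nab reads per kb in the 12 peripheral libraries and 32.3% to 52.6% in the 6 thymic ones. It still held the larger share in thymic W131AOTII replicates 2 and 3 (52.6% and 51.1%).

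Across the groups, thymic OTII had the highest mean CPM of Nr4a1, Nr4a3, Egr1, Egr2, Egr3 and Nab2, and thymic W131AOTII that of Nr4a2 and Nab1. Peripheral Cbl-b-/- OTII had the lowest mean of Nr4a1, Egr1, Egr2 and Egr3. For Nr4a1 the order was thymic OTII, thymic W131AOTII, peripheral W131AOTII, peripheral Cbl-b-/-W131AOTII, peripheral OTII and peripheral Cbl-b-/- OTII, and only the third and the fourth overlapped in their libraries. For Egr1 the order was thymic OTII, thymic W131AOTII, peripheral OTII, peripheral W131AOTII, peripheral Cbl-b-/-W131AOTII and peripheral Cbl-b-/- OTII, with overlap only between peripheral OTII and peripheral W131AOTII. Every neighbouring pair of groups overlapped for Nr4a3, and Nr4a2 had 1 gap, between the peripheral groups with and without W131A.

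**Figure D1:**
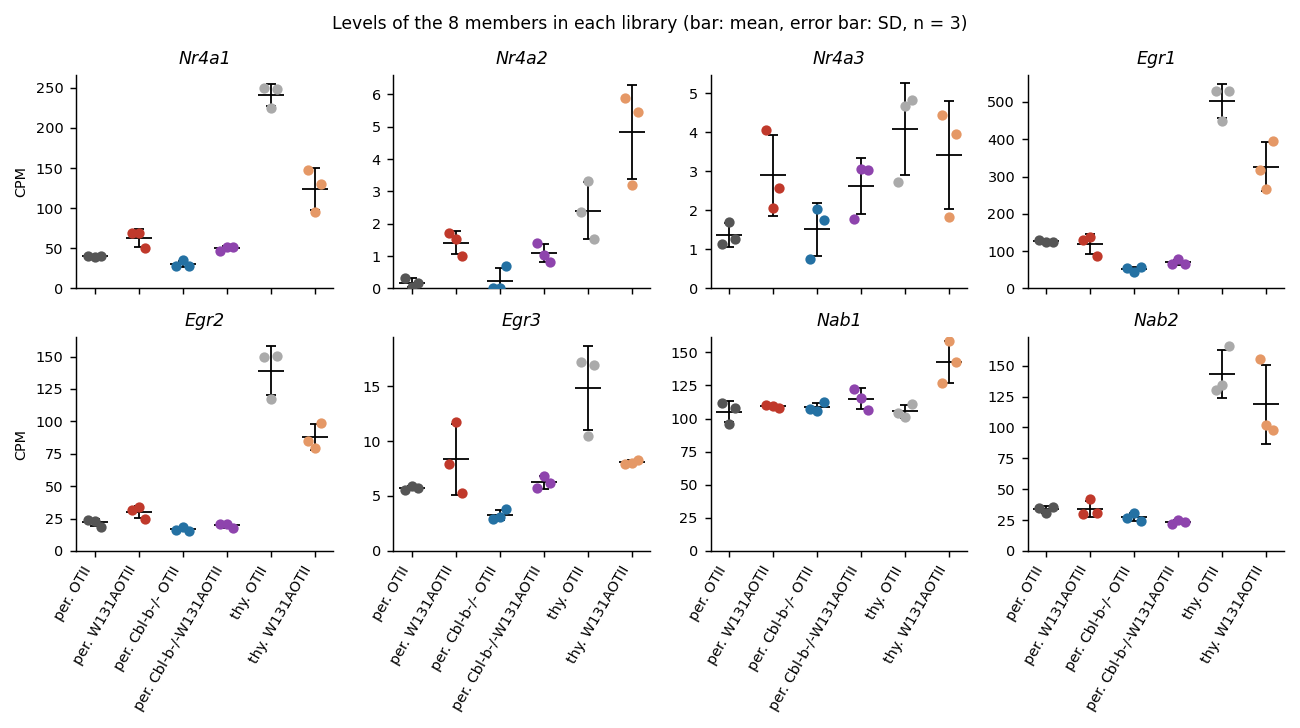
CPM of each member (linear axis from 0, own scale per panel) in the 18 libraries, by group; points are libraries, horizontal bars means and error bars SD (n = 3). Nr4a1, Egr1, Egr2 and Nab2 are higher in each thymic group than in every peripheral group, Nab1 is highest in thymic W131AOTII, and Egr1 is lowest in the groups without Cbl-b.

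The comparison of peripheral with thymic OTII cells asked what each member does once a CD4 single-positive thymocyte has become a naive T cell. A gene was called changed where its Benjamini-Hochberg adjusted p in edgeR's quasi-likelihood test was under 0.05. All members but Nab1 were lower in the periphery, 7 of 8, against 10.6% of all genes called lower and 7.75% called higher. Their median log2 fold change over the 8 was -2.04 beside -0.01 over all genes. Both the 7 and the median include Nr4a2, which passed the filter on low counts through groups where it was higher. Comparisons below share libraries wherever they share a group, so their values are set side by side and not correlated.

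Nr4a1 was 250, 225 and 248 CPM in thymic OTII and 40.5, 38.9 and 40.2 in peripheral OTII. The 6 libraries form narrow and separate sets, a 6.04-fold difference (log2 fold change -2.60 ± 0.16 SE, edgeR adjusted p = 2.51e-09). Nr4a2 was 2.36, 3.31 and 1.54 CPM in the thymus and 0.334, 0.0342 and 0.179 in the periphery, and fell by 3.69 ± 0.78 on the log2 scale (adjusted p = 0.00212). The peripheral Nr4a2 values rest on 10, 1 and 5 counts. Nr4a3 was 2.74, 4.68 and 4.83 CPM in the thymus and 1.13, 1.71 and 1.26 in the periphery (log2 fold change -1.58 ± 0.41, adjusted p = 0.00997).

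Egr1 was 528, 448 and 529 CPM in thymic OTII and 130, 125 and 124 in peripheral OTII, 3.96-fold lower (log2 fold change -1.99 ± 0.17, edgeR adjusted p = 1.03e-07). Egr2 went from 150, 117 and 150 CPM to 24.0, 23.4 and 18.6, 6.31-fold lower (-2.66 ± 0.16, adjusted p = 1.63e-09). Egr2 thus lay further below its thymic level than Egr1 did. Egr3 was 17.2, 10.4 and 16.9 CPM in the thymus and 5.51, 5.88 and 5.74 in the periphery, 2.60-fold lower (-1.38 ± 0.25, adjusted p = 0.000571).

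The corepressors parted. Nab2 was 130, 134 and 166 CPM in thymic OTII and 34.9, 30.7 and 35.9 in peripheral OTII (-2.08 ± 0.18, edgeR adjusted p = 1.26e-07). Nab1 was 104, 101 and 111 CPM in thymic OTII and 111, 96.2 and 108 in peripheral OTII, with overlapping libraries (log2 fold change -0.00 ± 0.11, adjusted p = 0.995). Nab2 shares 40 exon bases (1.36% of its exon length) with Stat6 and 151 (5.13%) with Nemp1 on the opposite strand. Reads there cannot be told apart, with the strand setting not given in the sources used here. Stat6 was 0.40 ± 0.13 higher on the log2 scale in the periphery (adjusted p = 0.0397) and Nemp1 did not pass (-0.13 ± 0.19, adjusted p = 0.717). The part of opposite-strand reads in the Nab2 values was not tested. A larger overlap, 1050 bases (35.7%), is with the antisense gene Gm16229, which had 3 counts over all libraries. All 7 calls were kept in each of 15 alternatives. Markers of immature thymocytes summed to 1349 to 1952 CPM in thymic OTII and to 570 to 608 in peripheral OTII, with none of the 8 genes at 0 in either group. NK and innate-like markers summed to 409 to 1046 CPM against 86.9 to 102 (6 of 8 lower and 1 higher in the periphery), and B cell markers to 719 to 1013 against 2183 to 2543 (8 of 10 higher and 1 lower). The part of these cells in the result was not tested. In bulk RNA, fewer expressing cells and less RNA per cell cannot be told apart.

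In cells with W131A the same comparison called Nr4a1, Egr1, Egr2, Nab1 and Nab2 lower in the periphery, 5 of 8, against 11.2% of genes lower and 8.07% higher. Nr4a1 was 147, 95.4 and 130 CPM in thymic W131AOTII and 69.3, 69.0 and 49.9 in peripheral W131AOTII, 1.98-fold lower (-0.99 ± 0.15, edgeR adjusted p = 0.00013). Egr1 was 2.74-fold lower (-1.46 ± 0.17, adjusted p = 4.07e-06), Egr2 2.92-fold (-1.55 ± 0.16, adjusted p = 9e-07) and Nab2 3.49-fold (-1.80 ± 0.18, adjusted p = 7.73e-07). The Nr4a2, Nr4a3 and Egr3 differences did not pass (log2 fold changes -1.76, -0.23 and 0.05, adjusted p = 0.0609, 0.759 and 0.93). Nab1 was lower by 0.39 ± 0.11 (adjusted p = 0.0147), a call that was lost in 8 of 15 alternatives, among them without peripheral W131AOTII replicate 1, 2 or 3 or thymic W131AOTII replicate 2 or 3 (adjusted p = 0.0505 to 0.0941).

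W131A in peripheral cells was compared with OTII to ask whether the anergic state carries raised receptor-induced factors. Nr4a1 rose 1.57-fold and was the only member called, 1 of 8, against 1.68% of genes called higher and 0.250% lower. It was 40.5, 38.9 and 40.2 CPM in peripheral OTII and 69.3, 69.0 and 49.9 in peripheral W131AOTII, so that the groups did not overlap and replicate 3 lay nearest to the controls (0.65 ± 0.15, edgeR adjusted p = 0.0291). The call was lost without any 1 of peripheral OTII replicate 1, 2 or 3 or peripheral W131AOTII replicate 1 or 2 (adjusted p = 0.0831 to 0.132), and was 0.167 without both libraries that stood apart. The Nr4a1 log2 fold change stayed between 0.59 and 0.79 when 1 library was left out.

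Nr4a2 was 0.334, 0.0342 and 0.179 CPM in peripheral OTII and 1.70, 1.54 and 1.02 in peripheral W131AOTII, from 16 and 140 counts over the groups. The sets were well apart, yet the fitted change of 2.93 ± 0.78 did not pass (edgeR adjusted p = 0.0596); 4 of 15 alternatives called it, and the adjusted p ranged from 2.66e-06 without the low-count filter to 0.298. Nr4a3 was 1.13, 1.71 and 1.26 CPM against 4.05, 2.06 and 2.58, also without overlap and also short of the threshold (1.08 ± 0.41, adjusted p = 0.294). Of the 3 Nr4a genes, only Nr4a1 passed. Nr4a2 passed the filter on low counts through groups where it was higher, so its separation is a description only.

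Among the Egr genes the values were smaller. Egr2 was 24.0, 23.4 and 18.6 CPM in peripheral OTII and 32.0, 33.8 and 24.4 in peripheral W131AOTII (0.45 ± 0.15, edgeR adjusted p = 0.211). Egr3 was 5.51, 5.88 and 5.74 CPM against 7.91, 11.8 and 5.32 (0.54 ± 0.25, adjusted p = 0.492). Egr1 was 130, 125 and 124 CPM against 130.6, 138 and 88.0, with a fold change near 0 (-0.09 ± 0.16, adjusted p = 0.974). Peripheral W131AOTII replicate 3 was the lowest of its group for Nr4a1, Nr4a2, Egr1, Egr2 and Egr3, and it also had the group's highest Hspa1b, 19.5 CPM against 1.67 and 1.12; the part of that stress signal in the values was not tested. Replicate 2, which stood apart by B cell and myeloid transcripts, was the highest of the group for Egr1, Egr2, Egr3 and Nab2. Without it the Egr3 estimate was 0.22. Nab1 (0.05 ± 0.11, adjusted p = 0.974) and Nab2 (0.01 ± 0.17, adjusted p = 0.998) showed overlapping libraries.

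In the absence of Cbl-b, W131A gave a similar list. Nr4a1 was 28.3, 35.3 and 27.7 CPM in peripheral Cbl-b-/- OTII and 47.0, 51.7 and 51.4 in peripheral Cbl-b-/-W131AOTII, a 1.64-fold rise (0.72 ± 0.16, edgeR adjusted p = 0.0183) and the 1 call among the 8, against 0.802% of genes higher and 1.09% lower. The Nr4a1 call was lost without peripheral Cbl-b-/- OTII replicate 1 or without peripheral Cbl-b-/-W131AOTII replicate 2 or 3 (adjusted p = 0.0573 to 0.0741). Egr3 was 2.90, 3.09 and 3.82 CPM against 5.68, 6.80 and 6.22, without overlap, and missed the threshold (0.92 ± 0.26, adjusted p = 0.073), although 5 of 15 alternatives called it. Nr4a2 had 0 counts in peripheral Cbl-b-/- OTII replicates 1 and 2 and 20 in replicate 3, against 48, 28 and 24 with W131A (2.08 ± 0.76, adjusted p = 0.168). A count of 0 allows up to 0.152 and 0.126 CPM in those libraries, from 3 counts, and such floors cover counting error only. Egr1, Egr2, Nr4a3, Nab1 and Nab2 had log2 fold changes from -0.20 to 0.78 and did not pass.

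Markers of regulatory T cells, led by Foxp3 and Il2ra, moved with W131A in the periphery, where the 6 genes summed to 92.9 to 100.5 CPM in peripheral OTII and 364 to 401 in peripheral W131AOTII, with none at 0. The sums were 129 to 170 CPM in peripheral Cbl-b-/- OTII and 376 to 427 in peripheral Cbl-b-/-W131AOTII. Markers of NK and innate-like T cells summed to 86.9 to 102 CPM in peripheral OTII and 184 to 463 in peripheral W131AOTII. Their part in the Nr4a1 result was not tested.

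W131A in the thymus lowered 3 members. Nr4a1, Egr1 and Egr2 fell and Nab1 rose, 3 of 8 lower and 1 of 8 higher, against 1.04% of genes lower and 1.73% higher. Nr4a1 was 250, 225 and 248 CPM in thymic OTII and 147, 95.4 and 130 in thymic W131AOTII, 1.94-fold lower without overlap (-0.96 ± 0.15, edgeR adjusted p = 0.00116). All 15 alternatives kept the Nr4a1 call.

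Egr2 was 150, 117 and 150 CPM in thymic OTII and 84.6, 79.8 and 99.1 in thymic W131AOTII (-0.66 ± 0.15, edgeR adjusted p = 0.0197). Egr1 was 528, 448 and 529 CPM against 318, 266 and 396 (-0.62 ± 0.16, adjusted p = 0.0452). Neither pair of groups overlapped, but both calls were near the threshold. Egr2 was lost without thymic OTII replicate 1 or 3 or thymic W131AOTII replicate 1 or 2 (adjusted p = 0.0502 to 0.107) and in a fit of these 2 groups alone (0.116), and Egr1 was lost without the same libraries (0.0821 to 0.176), in the fit of the 2 groups alone (0.163), with GC and length offsets (0.0643) and with a replicate block (0.0698). Without both libraries that stood apart, thymic OTII replicate 3 among them, the Egr2 p was 0.0892 and the Egr1 p 0.153.

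Egr3 was 17.2, 10.4 and 16.9 CPM in thymic OTII and 7.88, 8.04 and 8.26 in thymic W131AOTII, also without overlap (-0.88 ± 0.25, edgeR adjusted p = 0.063). Nr4a2 was 2.36, 3.31 and 1.54 CPM against 5.87, 3.19 and 5.47, the only member of its family with a positive estimate in the thymus (1.001 ± 0.63, adjusted p = 0.441), and Nr4a3 overlapped (-0.27 ± 0.39, adjusted p = 0.778). Nab1 was 104, 101 and 111 CPM against 127, 158 and 143 (0.44 ± 0.11, adjusted p = 0.032), a rise that 10 of 15 alternatives lost, among them without thymic OTII replicate 1, 2 or 3 or thymic W131AOTII replicate 2 or 3 (0.0943 to 0.122). The Nab2 values of 155, 102 and 98.3 CPM in thymic W131AOTII straddled the OTII values (-0.27 ± 0.17, adjusted p = 0.447). Hspa1b was 113 CPM in thymic OTII replicate 3 and at most 2.703 in the other 5 thymic libraries, and Fos in that library was 47.1 CPM against 12.0 and 8.32 in its group. Erythroid and platelet markers moved with W131A in the thymus (4 of 5 tested higher), from sums of 0.395 to 0.802 CPM with 5 of 8 genes at 0 in OTII to 3.94 to 33.2 CPM in W131AOTII. Of 8 naive T cell markers 2 were lower, and of 8 NK and innate-like markers 1 was higher, with sums of 409 to 1046 CPM in OTII and 492 to 1295 in W131AOTII. The 14 handling and heat shock genes summed to 2804 to 2948 CPM in OTII and 3313 to 5287 in W131AOTII, with library sizes unscaled. The part of these in the thymic results was not tested.

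**Figure D2:**
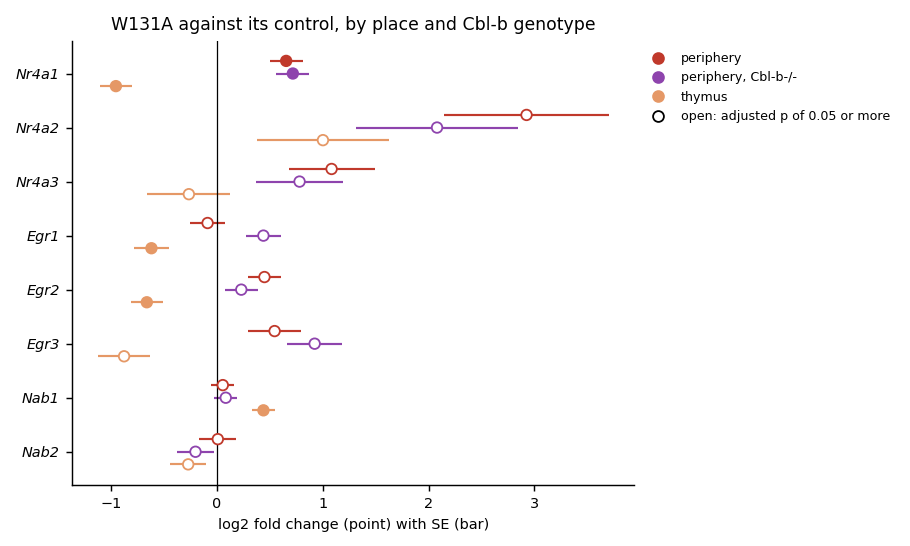
Log2 fold change (x axis) of each member with W131A in the periphery, in the periphery without Cbl-b and in the thymus; bars are SE and open points have an adjusted p of 0.05 or more. Nr4a1 lies at 0.65 and 0.72 in the periphery and at -0.96 in the thymus.

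The difference between the W131A effects in the 2 places was tested directly. It was 1.61 ± 0.22 on the log2 scale for Nr4a1 (edgeR adjusted p = 0.000865) and 1.11 ± 0.22 for Egr2 (adjusted p = 0.0253), 2 of 8 called, against 0.296% of genes higher and 0.0855% lower in the same test. All 21 alternatives kept Nr4a1. Egr2 was lost in 8 of 21, among them without peripheral OTII replicate 3, peripheral W131AOTII replicate 1 or 2, thymic OTII replicate 1 or 3 or thymic W131AOTII replicate 2 (0.0587 to 0.0775). Egr3 was 1.42 ± 0.35 (adjusted p = 0.0954) and was called in 5 of 21 alternatives. Nr4a3 was 1.35 ± 0.56 (0.474), Nr4a2 1.93 ± 0.99 (0.566) and Egr1 0.53 ± 0.23 (0.485), and neither these nor Egr3 passed. Nab2 (0.28 ± 0.24, 0.747) and Nab1 (-0.38 ± 0.15, 0.433) did not pass either. Nr4a2 also passed the filter on low counts through groups where it was higher.

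Loss of Cbl-b in peripheral OTII cells asked what this ligase changes in the absence of W131A. Egr1 fell 2.44-fold and was the 1 member of 8 called, against 2.99% of genes lower and 5.22% higher. It was 130, 125 and 124 CPM in peripheral OTII and 53.9, 44.9 and 56.7 in peripheral Cbl-b-/- OTII (-1.29 ± 0.17, edgeR adjusted p = 0.000134). The groups were far apart, and all 15 alternatives kept the call, with the adjusted p at most 0.00693.

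Egr3 lay in the same direction without overlap, 5.51, 5.88 and 5.74 CPM against 2.90, 3.09 and 3.82 (-0.80 ± 0.26, edgeR adjusted p = 0.0592), and 4 of 15 alternatives called it. Egr2 was 24.0, 23.4 and 18.6 CPM against 16.3, 18.7 and 15.5 (-0.39 ± 0.16, adjusted p = 0.12). Nr4a1 was 40.5, 38.9 and 40.2 CPM against 28.3, 35.3 and 27.7 (-0.39 ± 0.16, adjusted p = 0.121). These 3 had estimates below 0 and did not pass. Nab2 (-0.31 ± 0.18, adjusted p = 0.285), Nab1 (0.04 ± 0.11, 0.846) and Nr4a3 (0.16 ± 0.42, 0.862) did not pass either. For Nr4a2, with 16 and 20 counts in the groups, the estimate was 0.48 ± 0.89 (adjusted p = 0.791) and turned to -5.39 (0.0413) without peripheral Cbl-b-/- OTII replicate 3, which left a group of 2 libraries at 0 and is no measure of size.

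In cells with W131A, loss of Cbl-b called Egr1 and Egr2 lower, 2 of 8, against 6.08% of genes lower and 3.18% higher. Egr1 was 130.6, 138 and 88.0 CPM in peripheral W131AOTII and 65.5, 78.6 and 66.6 in peripheral Cbl-b-/-W131AOTII (-0.76 ± 0.16, edgeR adjusted p = 0.0117). Egr2 was 32.0, 33.8 and 24.4 CPM against 20.9, 20.6 and 17.5 (-0.61 ± 0.15, adjusted p = 0.0232). Neither pair overlapped. Egr1 was lost without peripheral W131AOTII replicate 2 (0.0657), without peripheral Cbl-b-/-W131AOTII replicate 1 (0.0716), without both libraries that stood apart (0.0849) and with GC and length offsets (0.15). Egr2 was lost without peripheral W131AOTII replicate 2, without peripheral Cbl-b-/-W131AOTII replicate 1, 2 or 3 (0.0513 to 0.0969), without both libraries that stood apart (0.119) and with unscaled library sizes (0.0655). B cell markers fell in the same comparison, 9 of 10 with a median of -2.86 beside 0.03 over all genes, and 4 of 10 tested myeloid markers fell. The B cell sum was 2268, 5030 and 2390 CPM in peripheral W131AOTII and 1631 to 1790 in peripheral Cbl-b-/-W131AOTII, with none of the 10 genes at 0, and the part of these cells in the Egr1 and Egr2 results was not tested.

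Nab2 was 29.6, 41.9 and 30.5 CPM in peripheral W131AOTII and 22.2, 25.3 and 23.7 in peripheral Cbl-b-/-W131AOTII, without overlap (-0.52 ± 0.18, edgeR adjusted p = 0.0669; called in 5 of 15 alternatives). Stat6, which overlaps Nab2, moved the same way here, from 706 to 854 CPM down to 513 to 568 (-0.50 ± 0.13, adjusted p = 0.0273), and its part in the Nab2 values was not tested. Nr4a1, Nr4a2, Nr4a3, Egr3 and Nab1 had log2 fold changes from -0.42 to 0.07 and did not pass.

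Cells with both changes were set against peripheral OTII. Only Egr1 was called, 1 of 8, against 3.52% of genes lower and 3.87% higher; it was 1.80-fold lower (-0.85 ± 0.16, edgeR adjusted p = 0.00373), and the call was lost with GC and length offsets (0.0536). Nr4a1 was 40.5, 38.9 and 40.2 CPM in peripheral OTII and 47.0, 51.7 and 51.4 with both changes, without overlap (0.33 ± 0.15, adjusted p = 0.2). Nr4a2 was 0.334, 0.0342 and 0.179 CPM against 1.41, 1.05 and 0.834 (2.56 ± 0.78, adjusted p = 0.0525), called in 5 of 15 alternatives. Egr1 was thus called below the OTII level with both changes, while the higher values of Nr4a1 and Nr4a2 did not pass. Nr4a2 also passed the filter on low counts through groups where it was higher. Egr2 and Egr3 overlapped with OTII (-0.16 and 0.13, adjusted p = 0.559 and 0.8), and Nab2 (-0.51 ± 0.18, 0.0805) and Nr4a3 (0.94 ± 0.41, 0.165) did not overlap and did not pass.

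The interaction asked whether W131A acted differently without Cbl-b. No member was called by edgeR, 0 of 8, with 1 at an unadjusted p under 0.05 and 0 called by DESeq2, against 0.0395% of genes higher and 0.592% lower. Egr1 had an interaction of 0.53 ± 0.23 on the log2 scale (edgeR adjusted p = 0.372), as its estimates with Cbl-b loss were -1.29 in OTII and -0.76 in W131AOTII cells. For Nr4a1 it was 0.06 ± 0.22 (adjusted p = 0.94). The remaining members lay between -0.85 (Nr4a2) and 0.38 (Egr3) with adjusted p of 0.701 or more.

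**Figure D3:**
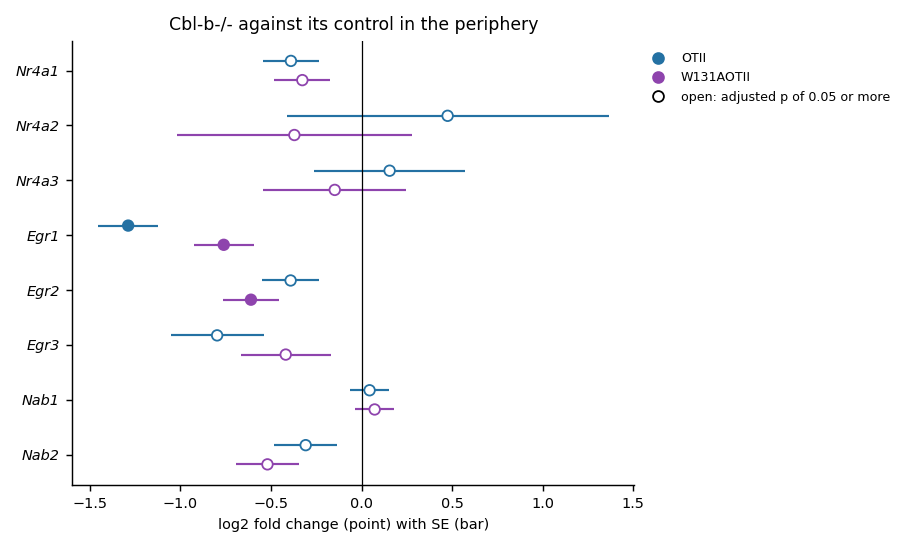
Log2 fold change (x axis) of each member with loss of Cbl-b in OTII and in W131AOTII peripheral cells; bars are SE and open points have an adjusted p of 0.05 or more. Egr1 lies at -1.29 and -0.76 and Egr2 at -0.39 and -0.61, while Nab1 lies near 0 in both.

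Other immediate early genes were called in small numbers and in both directions when Cbl-b was lost. Of 23 tested partners, 1 rose and 1 fell in OTII cells, against 5.22% of all genes higher and 2.99% lower. In W131AOTII cells 2 rose and 2 fell, against 3.18% of all genes higher and 6.08% lower. Dusp6, a phosphatase of ERK, fell by 0.51 and by 0.46 on the log2 scale (edgeR adjusted p = 0.0254 and 0.037), and Srf, the serum response factor, was -0.60 ± 0.20 (0.0673) in OTII and fell by 0.90 (0.0142) in W131AOTII cells. Hspa1b was 0.567 to 1.004 CPM in peripheral OTII, 25.5 to 34.5 in peripheral Cbl-b-/- OTII and 59.7 to 130 in peripheral Cbl-b-/-W131AOTII, without a call between the groups (5.21 ± 1.94 in OTII cells, edgeR adjusted p = 0.112). Fosb, an immediate early AP-1 gene, rose by 2.08 ± 0.63 in OTII (adjusted p = 0.0486) and by 3.35 ± 0.59 in W131AOTII cells (0.00395) from 0.0321 to 0.142 CPM in the 6 libraries with Cbl-b. Dusp1, an immediate early phosphatase of MAP kinases, was 0.26 ± 0.17 (0.347) and 0.80 ± 0.17 (0.0102), and Jun was 1.68 ± 0.96 (0.295) and 1.30 ± 0.93 (0.394). Fosb passed the filter on low counts through groups where it was higher, so its rise is given as a description only. In the groups without Cbl-b, Hspa1b lay above every peripheral OTII library. The part of handling stress in the Egr1 result was not tested. Of 14 heat shock and tissue handling genes, 2 rose and 0 fell with loss of Cbl-b in OTII, and 2 rose and 2 fell in W131AOTII. With W131A, 0 changed in the periphery, against 1.68% of all genes higher and 0.250% lower. In the thymus 2 rose with W131A, against 1.73% of all genes higher and 1.04% lower. Within peripheral W131AOTII, replicate 3 had both the highest Hspa1b and the lowest Egr1 of its group. Thymic OTII replicate 3, with Hspa1b at 113 CPM, had Egr1 at 529 CPM, beside 528 and 448 in replicates 1 and 2.

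**Figure D4:**
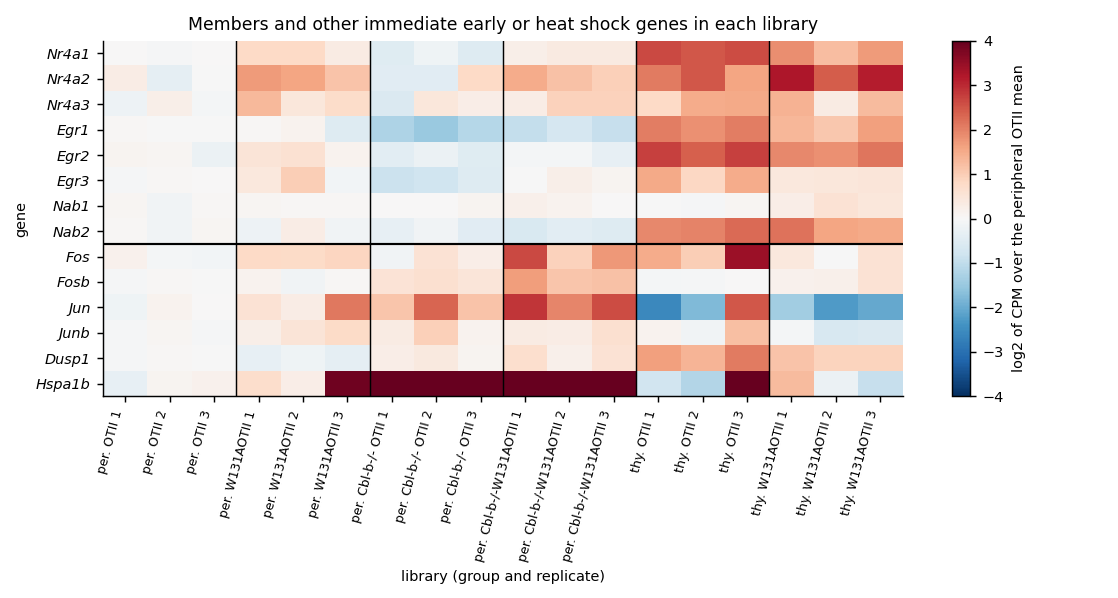
Colour gives log2 of each library's CPM over the peripheral OTII mean (0.5 CPM added to both, colours end at -4 and 4) for the members and, under the line, 5 immediate early genes and Hspa1b. Egr1 is blue in all 6 libraries without Cbl-b while Jun and Hspa1b are red there, and thymic OTII replicate 3 is red for Fos, Jun and Hspa1b.

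A ratio of reads within a library does not depend on scaling. The number of Egr1 reads per Nr4a1 read was 3.21, 3.22 and 3.09 in peripheral OTII, 1.89, 2.01 and 1.76 in peripheral W131AOTII and 1.90, 1.27 and 2.05 in peripheral Cbl-b-/- OTII. It was 1.39, 1.52 and 1.30 in peripheral Cbl-b-/-W131AOTII. The peripheral OTII libraries were above all 9 others from the periphery. In the thymus the order was the reverse, with 2.11, 2.00 and 2.13 in OTII and 2.16, 2.79 and 3.04 in W131AOTII, without overlap by a narrow margin. With 3 libraries against 3, an exact permutation test cannot go below 0.10, so these ratios are given as a description. The number of Egr1 reads per Egr2 read showed the same standing of peripheral OTII, at 5.36 to 6.66 against 2.40 to 4.10 in all other groups.

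**Figure D5:**
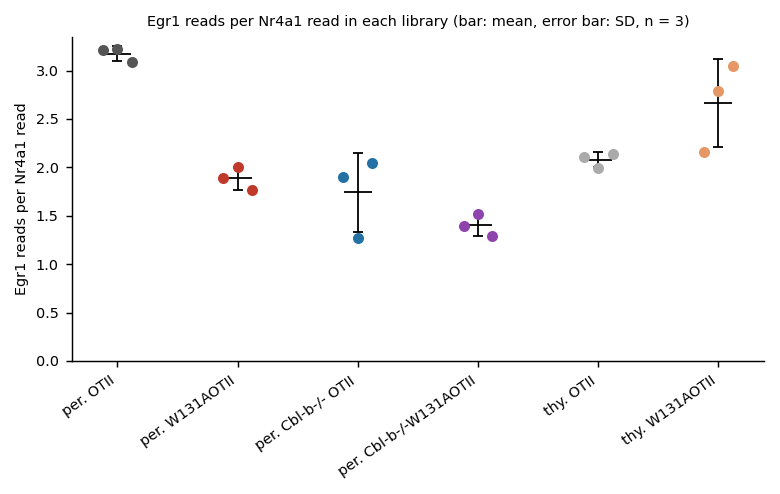
Egr1 reads per Nr4a1 read (y axis from 0) in each library by group; points are libraries, horizontal bars means and error bars SD (n = 3). Peripheral OTII sits at 3.09 to 3.22, above every other peripheral library.

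Nab2 reads per Egr2 read ran from 1.31 to 1.92 in peripheral OTII and from 0.927 to 1.25 in peripheral W131AOTII, and from 1.57 to 1.66 against 1.06 to 1.35 in the groups without Cbl-b. The W131A groups were lower in both pairs without overlap. In the thymus the sets overlapped, at 0.869 to 1.14 in OTII and 0.992 to 1.84 in W131AOTII.

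Across the 18 libraries the log2 CPM of Nr4a1 correlated with that of Egr2 (r = 0.97), Egr1 (r = 0.93), Nab2 (r = 0.92) and Egr3 (r = 0.88), a description in which the step between thymus and periphery dominates. Over the 12 peripheral libraries the values were 0.82 for Egr2, 0.58 for Egr1, 0.28 for Nab2 and 0.89 for Egr3. After the group means were removed they were 0.59, 0.56, 0.60 and 0.44. Nab1 had r between 0.09 and 0.55 with the other members over the 18 libraries. Libraries share their scaling and group, so these values carry no p.

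The genes most like each member were found by Pearson r over the 12 peripheral libraries among 11598 protein-coding genes. Nr4a1 was nearest to Gramd4 (r = 0.96), Icosl (r = 0.96) and Crtam (r = 0.94), and Egr3 to Icosl (r = 0.94), Zdhhc1 (r = 0.93) and Cd72 (r = 0.93). Icosl, the ligand of the costimulatory receptor ICOS, headed the list of Egr3 and came second for Nr4a1, and its r over all 18 libraries was -0.29 and -0.44. Egr1 was nearest to Ipo4 (r = 0.95), Fyn (r = 0.95), a kinase of the Src family that acts at the receptor, and Mapk7 (r = 0.94); over 18 libraries Fyn and Mapk7 kept r = 0.93 and 0.95. Egr2 was nearest to Fam240a (r = 0.92), Aqp3 (r = 0.90) and Wdr62 (r = 0.90), and Nab2 to Chst3 (r = 0.95), Tut1 (r = 0.94) and Tfeb (r = 0.93). Nr4a2 was nearest to Nsmaf (r = 0.94), Gphn (r = 0.93) and Arhgef12 (r = 0.93), Nr4a3 to Zfp300 (r = 0.88), Slc35f2 (r = 0.87) and Adgrg5 (r = 0.87), and Nab1 to Ublcp1 (r = 0.89), Wdr75 (r = 0.85) and Lgals8 (r = 0.83). The top values were picked as the highest of 11598 and are high by that selection.

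Other genes of the pathway were counted from lists chosen by name, with earlier results of these data known. The counts and the shares of all genes beside them are therefore a description. Among all genes, 7.75% were called higher and 10.6% lower from thymic to peripheral OTII. With W131A the shares were 1.68% and 0.250% in the periphery, 0.802% and 1.09% without Cbl-b, and 1.73% and 1.04% in the thymus. With loss of Cbl-b in OTII cells they were 5.22% and 2.99%. Of 23 tested immediate early and ERK-SRF partners, 11 fell and 1 rose from thymic to peripheral OTII, with a median log2 fold change of -0.53 beside -0.01 over all genes. Dusp6 (-1.78 ± 0.13), Dusp1 (-1.75 ± 0.17) and Dusp5 (-1.20 ± 0.17), phosphatases of MAP kinases, were among those that fell, and Klf6 was the one that rose (1.06 ± 0.13). With W131A in the thymus, 5 fell and 0 rose (median -0.41 beside 0.01), with Zfp36 (-0.78 ± 0.13, edgeR adjusted p = 0.00137), Dusp1 (-0.75 ± 0.17, 0.016), Fos (-2.12 ± 0.49, 0.0233) and Dusp5 (-0.71 ± 0.17, 0.0266) named by the smallest p. With W131A in the periphery none of the 23 was called (median 0.11 beside -0.00). The direction in the thymus was thus shared by Nr4a1, Egr1 and Egr2 with these partners, and Fos was highest in thymic OTII replicate 3.

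Of 15 genes linked to NR4A factors in T cells, 7 rose and 0 fell with W131A in the periphery (median 1.14 beside -0.00), 4 rose with W131A in cells without Cbl-b (0.41 beside -0.02), and 2 rose and 1 fell in the thymus (-0.06 beside 0.01). The regulatory T cell factor Foxp3 rose by 2.25 ± 0.20 in the periphery (edgeR adjusted p = 2.14e-06), Nt5e, which encodes the ectoenzyme CD73, by 2.58 ± 0.30 (3.04e-05), Ikzf4 by 1.14 ± 0.15 and the inhibitory receptor Ctla4 by 1.80 ± 0.24. In the thymus Nt5e (2.56 ± 0.30) and Foxp3 (1.22 ± 0.20) rose and Irf4, a factor induced in proportion to receptor signal, fell (-1.24 ± 0.21, adjusted p = 0.00214). Irf4 was also called in the difference between the places, at 2.36 ± 0.31 (adjusted p = 0.000865). The list overlaps with regulatory T cell markers in Foxp3, Ctla4 and Ikzf2, and loss of Cbl-b, in which no Nr4a gene was called, also raised 6 of the 15, among them Ctla4 (2.14 ± 0.25) and Tigit (2.62 ± 0.44), and lowered 1.

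Of 18 genes linked to Egr2 and Egr3, 2 rose and 1 fell with W131A in the periphery (median 0.41 beside -0.00). The costimulatory receptor gene Tnfrsf9 rose by 1.67 ± 0.20 and Socs3, an inhibitor of cytokine signalling, by 0.76 ± 0.15, and Ndrg1, a gene linked to anergy, fell by 0.94 ± 0.14. In the thymus Ndrg1 (-1.55 ± 0.14) and Id3 (-0.74 ± 0.20) fell and Socs3 (1.41 ± 0.15) and Tnfrsf9 (0.95 ± 0.19) rose. With loss of Cbl-b, 2 rose and 2 fell, with Tnfrsf9 (1.64 ± 0.20) and Socs1 (0.90 ± 0.17) higher and Cblb itself and Socs3 lower. These genes did not move in 1 direction in any of the 3 comparisons.

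Of 17 tested receptor activity reporters outside the families, 5 rose and 0 fell with W131A in the periphery (median 0.43 beside -0.00), and 2 rose and 2 fell in the thymus (-0.09 beside 0.01). The signal-tuning receptor genes Cd5 (-1.35 ± 0.16, edgeR adjusted p = 5.95e-05) and Cd6 (-0.89 ± 0.13, 0.000463) fell in the thymus beside Nr4a1. Their differences between the places were 1.67 ± 0.23 and 1.004 ± 0.18 (0.000962 and 0.0168). Il2ra, which encodes CD25, the marker by which cells were excluded, rose in both places, by 1.57 ± 0.16 and 1.36 ± 0.16. Of 18 calcium, NFAT and MEF2 genes, none was called with W131A in the periphery (median 0.00 beside -0.00), and with loss of Cbl-b Nfatc1 (-0.62 ± 0.14, 0.0159) and Nfatc2 (-0.62 ± 0.17, 0.0326) fell (list median -0.29 beside 0.04).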

How the data were processed

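The authors deposited 1 file of unnormalized whole-number counts, with a row per Ensembl identifier and a column per library. Per the labels' protocols, total RNA was prepared by Nugen/Nextera XT and read single-end over 50 bases. The submitters' processing notes list STAR 2.7.2, GRCm38 and DESeq2; the counter, annotation and strand setting stay unnamed there. Identifiers were matched to GENCODE M21, all 55536 of them. A single model covered the 18 libraries in edgeR 4.0.16 under R 4.3.3 (filterByExpr, TMM, robust quasi-likelihood, 1 mean per group, 12 residual degrees of freedom). The 10 comparisons were Benjamini-Hochberg adjusted over 15204 genes at 0.05. CPM use TMM-scaled sizes, and log2 CPM a prior count of 2.

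A simulation of the comparison of W131A in the periphery, over 14847 genes, called 50.5% of 97 genes changed 2-fold and 75.0% of 96 changed 4-fold. It gave each gene 1 mean over all groups and changed genes drawn at random in peripheral W131AOTII only. Group differences and libraries that stood apart were not simulated, so these rates do not measure the power for the members. Alternatives were unscaled library sizes, DESeq2 size factors, DESeq2 1.42.0, voom with sample weights (limma 3.58.1), no low-count filter, only the groups compared, a replicate block, GC and length offsets, each library left out, and both libraries that stood apart left out (a marker or heat shock sum over 2 times that of both others of the group and at least 50 CPM). The members and lists were chosen with earlier results of these data known. Named genes are the members, Cblb and Zap70, up to 4 genes of each list with the smallest adjusted p, the 2 most abundant of each marker list and the 3 genes most like each member.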

Additional observations from a re-analysis of the deposited data

Results flagged for a closer look

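The W131A effect differed between places for 2 members, by a test of the difference itself. For Nr4a1 the effect in the periphery minus that in the thymus was 1.61 ± 0.22 on the log2 scale (edgeR adjusted p = 0.000865), made up of a rise of 0.65 in the periphery and a fall of 0.96 in the thymus. For Egr2 the difference was 1.11 ± 0.22 (adjusted p = 0.0253), from estimates of 0.45 and -0.66, of which the peripheral one alone did not pass. Without both libraries that stood apart the Egr2 difference had an adjusted p of 0.169 and the Nr4a1 difference was still called.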

How the results depend on the processing

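Of 1295 recomputed fold changes of single members, 1145 kept their direction and their side of the threshold, 60 lost the call, 57 gained one and 33 changed sign. The calls of Egr1 with loss of Cbl-b, of Nr4a1 with W131A in the thymus and in the difference between the places, and of the 7 members from thymus to periphery in OTII were kept under every alternative run.

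The number of members called changed as follows. With W131A in the periphery (1 called) it was 0 without both libraries that stood apart, 2 without the low-count filter, in the fit of the groups compared alone and by DESeq2, and 3 by voom. With loss of Cbl-b (1) it was 2 without the libraries that stood apart and by DESeq2, and 4 by voom. With loss of Cbl-b in W131A cells (2) it was 1 with unscaled library sizes and with GC and length offsets, 0 without the libraries that stood apart, 3 without the filter, in the fit of the groups compared alone and by DESeq2, and 4 by voom. With W131A in cells without Cbl-b (1) it was 3 without the filter, 2 without the libraries that stood apart and by DESeq2, and 5 by voom. With both changes against OTII (1) it was 2 with unscaled sizes, 3 without the filter and by DESeq2, and 5 in the fit of the groups compared alone and by voom. With W131A in the thymus (4) it was 3 with unscaled sizes, 2 with a replicate block, 1 without the libraries that stood apart and in the fit of the groups compared alone, 5 by DESeq2 and 7 by voom. From thymus to periphery in W131AOTII (5) it was 4 without the libraries that stood apart and 6 by DESeq2 and by voom; Nr4a2 was called in 4 alternatives and Nab1 lost in 8. The difference between the places (2) gave 1 without the libraries that stood apart and in the fit of the groups compared alone, and 3 without the filter, by DESeq2 and by voom. The level order was unchanged for 4 of 8 members with unscaled sizes.

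Leaving out 1 library gave 0 to 1 members called with W131A in the periphery, 1 to 3 with loss of Cbl-b, 0 to 3 with that loss in W131A cells, 0 to 3 with W131A in cells without Cbl-b and 1 to 1 with both changes. It gave 1 to 4 with W131A in the thymus, 7 to 7 and 4 to 5 from thymus to periphery in OTII and W131AOTII, 0 to 0 for the interaction and 1 to 3 for the difference between the places. The level order was unchanged for 5 to 8 of the 8 members. The labels tie no libraries together by replicate number. The deviations of same-numbered libraries correlated between -0.30 and 0.21, which cannot show whether libraries shared animals. The replicate block changed the count in no comparison but W131A in the thymus, where it left 2.

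Signs changed only around small or thinly counted effects. Nab2 with W131A in the periphery turned to -0.022 with unscaled sizes, -0.018 by voom, -0.084 with GC and length offsets, -0.16 without the libraries that stood apart, and lay between -0.16 and 0.11 with 1 library left out. Nr4a2 with loss of Cbl-b was -2.07 by voom and -5.39 to 1.25 with 1 library left out, and its interaction 1.63 by voom and -1.63 to 5.01. Nr4a3 with loss of Cbl-b was -0.62 by voom and -0.10 to 0.46, and its interaction 0.51 by voom and -0.62 to 0.0062. Nab1 from thymus to periphery in OTII was 0.014 without the filter, 0.0055 in the fit of the groups compared alone, 0.022 without the libraries that stood apart, and -0.058 to 0.049. Egr3 in the W131AOTII pair was -0.018 with unscaled sizes, -0.27 without the libraries that stood apart, -0.0051 by voom, and -0.27 to 0.29. With 1 library left out, the other sign changes were Egr1 (-0.20 to 0.081) with W131A in the periphery, Nab1 (-0.038 to 0.081) with loss of Cbl-b, Nr4a3 (-0.35 to 0.16) with that loss in W131A cells, Nr4a3 (-0.49 to 0.032) with W131A in the thymus, and Nr4a1 (-0.043 to 0.18) and Nab1 (-0.028 to 0.10) in the interaction. The cause was not tested. A lone pair of libraries in a group is assumed to vary like the other groups. Nr4a2 had 16 to 398 counts a group and Nr4a3 111 to 311, and the share of depth in their spread was not tested.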
